A study of Mus musculus with 2 samples.

Results

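The sites described here are CTCF peaks of the newborn mouse forebrain whose signal value differed at least 2-fold between the 2 libraries of the series. CTCF is a zinc-finger DNA-binding protein that recognises a long, GC-rich motif. On chromatin it halts the loop-extruding cohesin complex, most efficiently where a pair of motifs points inward, and so helps to set the anchors of chromatin loops. In neurons it is known for its part in choosing among the clustered protocadherin promoters. Both libraries came from chromatin immunoprecipitation with sequencing (ChIP-seq), in which DNA bound by a protein is pulled down with an antibody and sequenced. The tissue was forebrain of strain B6NCrl mice at postnatal day 0, pulverized and pooled from several dissections, so each library averages over many cell types and animals. The labels give no genotype beyond the strain, no treatment, and a sex that was not collected. They number the libraries biological replicate 1 and 2 but assign both to the same biosample and the same donor entry. There is 1 group, and the replicates serve here only to show where 1 differs from the other. A peak list measures no gene expression, so the tissue could not be checked against marker genes.

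The members were taken from the 56470 peaks that passed the authors' irreproducible discovery rate (IDR) analysis, in the list labelled optimal. For each peak, the signal value of the peak with the nearest summit within 100 bp was read from each replicate's own list of 300000 peaks. A summit was in reach in both lists for 54764 sites. The log2 ratio of replicate 1 to replicate 2 had a median of 0.20, equal to a 1.15-fold higher signal value in replicate 1, and this median was subtracted. Sites with a centred ratio of 1 or more, in either direction, were kept. There were 3315, or 6.05% of the measured sites. Of these, 1874 (3.42%) were higher in replicate 1 and 1441 (2.63%) were higher in replicate 2. Since the sites were selected on the signal values of both libraries, the ratios below are a description. With 1 library on each side the difference has no replicate check and no test, and the intervals given for shares of sites cover counting error only. The depth of the libraries is unknown, because the files hold peak signal values and no read counts.

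The remaining 1706 sites had no summit in reach. Of these, 663 lacked one in replicate 1 only, 892 in replicate 2 only and 151 in both. In 1479 of them the site nevertheless overlapped a called peak of each replicate. These unmeasured sites lay at promoters in 46.0% of cases, and 23.6% held a CTCF motif match.

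The sequences show the stretch closest to the CTCF core motif at some of the most unequal and the strongest members. The following stretches of 30 bases (mm10 coordinates, printed 5′ to 3′ on the strand named) hold the best match to the CTCF core motif within 50 bp of the summit. Capitals mark the bases that match the core, and lower-case letters are mismatches or flanks. They come from the sites with the largest ratio or the highest pooled signal value in each direction. The pooled signal value of a site is the one printed in the optimal list, which was made from both libraries. The first 6 belong to sites higher in replicate 1, and each holds 2 mismatches. They are the first 6 with a match; the sites at Spata17 (3 mismatches), Ncoa4, Ndrg3 and Hs6st3 (4 each) and Krt25 (5) had no match and are not printed.
Eif3k intron, chr7:28973220-28973249, minus strand: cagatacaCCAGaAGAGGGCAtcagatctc
Map4 promoter, chr9:109931880-109931909, minus strand: gcaggaagCCgGgAGAGGGCAGagaggagc
Sfrp2 intergenic flank, chr3:83762560-83762589, plus strand: aaatggcgCCcCCAGATGGCtGcagcgaat
Arpc5l promoter, chr2:39008107-39008136, minus strand: caccggctCCgCTtGGGGGCGGgaagcggc
Mcu intron, chr10:59454798-59454827, minus strand: ggcctgggCCACTAGGGtGCAtgtgcagag
Disp2 exon, chr2:118790728-118790757, minus strand: acttaatgaCACCAcAGGGCAGcaggcgct
The next 5 belong to sites higher in replicate 2. The stretches at Ccr10 and in the Esf1 intron hold 1 mismatch each and come from the strongest members. The Xkr4, Rtf2 and Hirip3 stretches hold 4, 3 and 3 mismatches and so fall outside the motif definition. They are shown because none of the 8 most unequal sites in this direction had a match, and they were chosen after their values were seen.
Ccr10 promoter, chr11:101175100-101175129, minus strand: cttactttCCAGgAGAGGGCACtgcaaagc
Esf1 intron, chr2:140159378-140159407, minus strand: taagtaaaCCACTAGGTGGaGCtctatgtg
Xkr4 flank, chr1:3672502-3672531, plus strand: tactcctaaCcGCAGGTGGgAaacgctgca
Rtf2 promoter, chr2:172440105-172440134, plus strand: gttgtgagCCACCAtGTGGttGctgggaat
Hirip3 promoter, chr7:126861933-126861962, plus strand: ccgcccgcCCtCCtGGGGGaAGacccgaaa

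The unequal sites were among the weakest of the forebrain list. In the authors' optimal list, the median pooled signal value was 26.5 at sites higher in replicate 1 and 25.9 at sites higher in replicate 2. It was 74.6 at the 51449 other measured sites. Sites higher in replicate 1 had a median signal value of 19.5 in replicate 1 and 6.51 in replicate 2. Sites higher in replicate 2 had a median of 7.83 in replicate 1 and 17.2 in replicate 2. The other sites had medians of 39.8 and 34.6. The higher library of an unequal site thus stood below the typical site of the list in both directions. By rank among the 300000 peaks of each library, sites higher in replicate 1 had a median rank of 40222 there and 83203.5 in replicate 2, while those higher in replicate 2 ranked at 79422 in replicate 1 and 39510 in replicate 2.

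**Figure D1:**
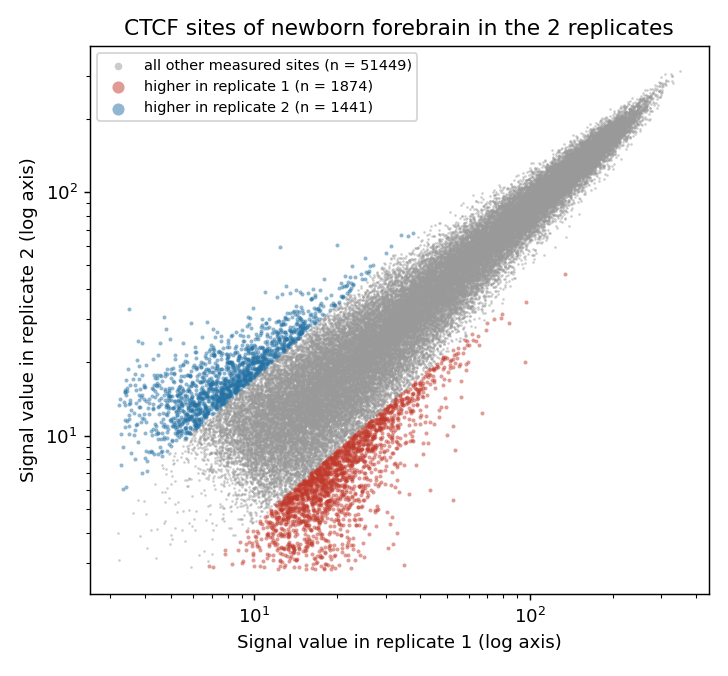
Signal value in replicate 1 (x axis) against replicate 2 (y axis), both on log axes, for every site measured in both; each point is 1 site. Red points (n = 1874) are higher in replicate 1, blue points (n = 1441) are higher in replicate 2 and grey points are the other 51449 sites, and the coloured points sit at the weak end of the cloud.

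Most members lay close to the threshold. The median centred log2 ratio was 1.28 among sites higher in replicate 1 and -1.25 among sites higher in replicate 2. A ratio of 1.5 or more was reached by 546 sites in the direction of replicate 1 and by 364 in the direction of replicate 2. A 4-fold difference (log2 ratio of 2) was reached by 138 and 89 sites. The extremes were 10.3-fold toward replicate 1 and 10.9-fold toward replicate 2, after centring. At both extremes, and at 15 of the 16 most unequal sites in all, the authors' q-value in the lower library was above 0.05, so these folds are over peaks that were not significant there. Just inside the threshold, an intronic site of the lncRNA gene Gm13791 had 17.8 in replicate 1 and 7.75 in replicate 2, and the site next to Stx12 had 16.2 and 7.07. Just outside it, the promoter sites of Cdc42se2 and Rabl3 had 26.6 and 11.6, and 15.7 and 6.85. In the other direction the promoter site of Ing1 was just inside, with 12.7 and 22.1, and the site nearest Dcaf5 just outside, with 11.8 and 20.5.

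The most unequal site toward replicate 1 (chr7:28973115-28973414) lay in an intron of Eif3k, which encodes a subunit of a translation initiation factor. Replicate 1 gave 34.8 there, replicate 2 gave 2.95, and the centred log2 ratio was 3.36. The value in replicate 2 was near 2.81, the lowest in that library's list. Its summit was in an annotated repeat. The promoter of Map4 (chr9:109931751-109932050), a microtubule-associated protein, had 30.7 and 3.46. The site 3743 bp from the start of Sfrp2 (chr3:83762428-83762727), a secreted modulator of Wnt signalling, had 32.9 and 3.97. The promoter of Arpc5l (chr2:39007967-39008266), a subunit of the actin-branching Arp complex, had 24.98 and 3.18. An intron of Mcu (chr10:59454638-59454937), the mitochondrial calcium uniporter, had 22.5 and 2.87. These 5 sites each held a core match with 2 mismatches.

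The other 3 of the 8 most unequal sites toward replicate 1 depended on which peak was read. The promoter of Ncoa4 (chr14:32159627-32159926), an adaptor that delivers ferritin to autophagy, had 31.9 in replicate 1 and 3.60 at the nearest summit in replicate 2. A stronger peak of replicate 2, with a value of 13.4, also overlapped the site. The promoter site of Spata17 (chr1:187142445-187142744) had 24.2 and 3.23, and its strongest overlapping peak in replicate 2 had 12.6. The intergenic site 11748 bp from Krt25 (chr11:99311053-99311352), a hair-root keratin gene, had 52.4 and 5.43. There the site's summit was in an annotated repeat. The replicate 1 summit was 92 bp from the site's summit, and a peak of 38.6 overlapped the site in replicate 2. Read by the strongest overlapping peak, the ratio stayed past the threshold at Ncoa4 and was within it at Spata17 and Krt25. Over all members, a stronger peak of the lower library overlapped 119 sites higher in replicate 1 and 83 sites higher in replicate 2. With the strongest overlapping peak in both libraries, 1781 (95.04%) and 1378 (95.6%) of the members stayed past the threshold.

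Toward replicate 2, the most unequal site (chr1:3672382-3672681) lay 1034 bp from the start of Xkr4, a gene of the Xk-related membrane protein family. Replicate 1 gave 3.51 there, replicate 2 gave 33.2, and the centred log2 ratio was -3.44. The site nearest Gm44780 (chr7:44360140-44360439) lay in an exon of Shank1, which encodes a postsynaptic scaffold, and had 4.69 and 30.7. A stronger peak of 12.3 overlapped it in replicate 1. An intronic site (chr15:62137213-62137512) of Pvt1, the lncRNA gene next to Myc, had 3.79 and 24.4. The site 8096 bp from Mvb12b (chr2:33895892-33896191), a subunit of an endosomal sorting complex, had 4.78 and 27.4. The remaining 4 were promoters. Rpf1 (chr3:146520677-146520976), a ribosome production factor, had 3.76 and 20.5. Sgf29 (chr7:126649254-126649553), a histone-reading subunit of the SAGA coactivator, had 3.49 and 18.9. Hirip3 (chr7:126861808-126862107), named for its binding to the histone chaperone HIRA, had 4.54 and 23.9. Rtf2 (chr2:172440006-172440305), a replication termination factor, had 3.92 and 23.9. At Rtf2 the summit was in an annotated repeat, and a second overlapping peak of replicate 1 had 23.6, close to the replicate 2 value. The 8 sites had 3 to 5 mismatches to the core motif.

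**Figure D2:**
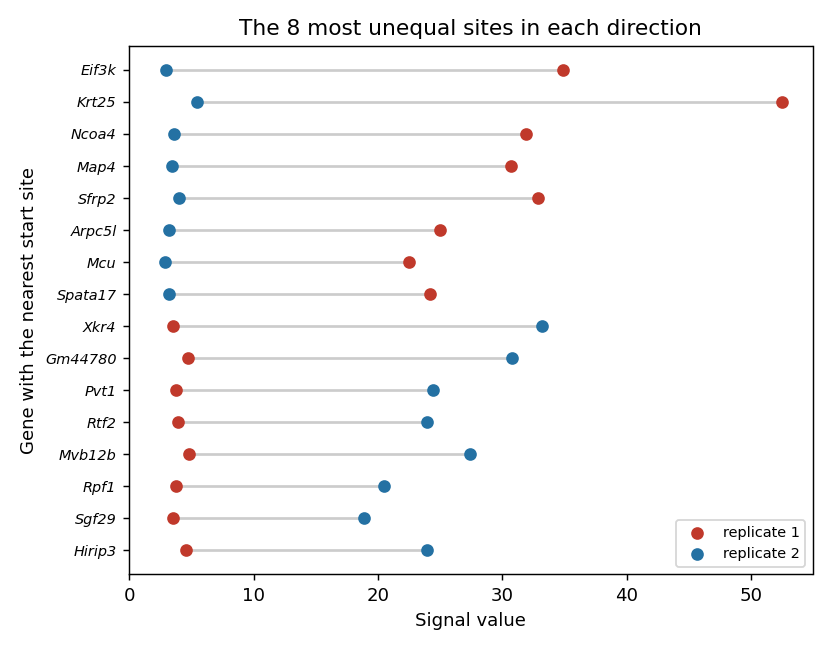
Signal value (x axis) in replicate 1 (red) and replicate 2 (blue) at the 8 most unequal sites in each direction, named by the gene with the nearest start site (y axis); each grey line joins the 2 values of a site. The lower value lies between 2.87 and 5.43 at all 16 sites shown.

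The members with the highest pooled signal value had larger values in both libraries. At the promoter of Ndrg3, the member with the highest pooled signal value (126), replicate 1 had 96.8 and replicate 2 had 35.3. The site 17480 bp from Dpysl4, a collapsin response mediator protein gene, had 84.1 and 29.1. Its core match had 1 mismatch. The promoter of Hs6st3, a heparan sulfate sulfotransferase, had 79.0 and 31.6, and an intron of Ncan, the brain proteoglycan neurocan, had 78.3 and 30.3. The exonic site of Disp2 had 67.1 and 12.5, but a stronger peak of 53.8 overlapped it in replicate 2. Toward replicate 2, the site in an intron of Esf1, a nucleolar protein gene, had 37.6 and 67.9. The exonic site of Ccm2l had 34.1 and 66.4, the promoter of Fam181b 36.2 and 66.3, the exonic site of the transcription factor gene Sp6 31.3 and 60.3, and the promoter of the chemokine receptor gene Ccr10 30.1 and 56.0. All 5 were near the 2-fold threshold, with centred log2 ratios from -1.16 to -1.05.

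Unequal sites thinned out steadily with strength. In the weakest decile of the list by pooled signal value, 12.3% of the measured sites were higher in replicate 1 and 10.1% in replicate 2. In the fourth decile the shares were 4.22% and 3.18%, and in the sixth they were 0.958% and 0.373%. None of the 16941 sites in the strongest 3 deciles was a member; in the eighth decile alone, the Wilson upper limit on such a count of 0 was 0.0681%. There were 18028 measured sites above the strongest member. The SD of the centred log2 ratio over all sites of a decile was 0.82 in the weakest decile and 0.13 in the strongest. The pooled signal value was made from the same 2 libraries as the ratio. A fixed threshold is also passed more often where ratios scatter more, as they did at weak sites. The decline with strength therefore describes the members and supports nothing about them. In each decile that held members, more were higher in replicate 1 than in replicate 2.

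**Figure D3:**
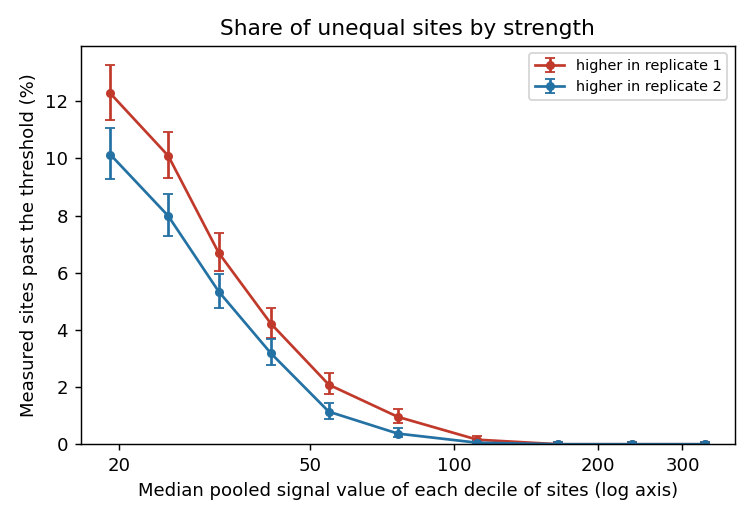
Share of measured sites past the 2-fold threshold (y axis, %) in each decile of the list, placed at the decile's median pooled signal value (x axis, log axis); bars are Wilson 95% intervals for counting error. Both directions decline from 12.3% and 10.1% in the weakest decile to 0 in the strongest 3.

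Of the 1874 sites higher in replicate 1, 250 (13.3%) overlapped a peak of the shorter, conservative IDR list of 54779 peaks, against 163 of 1441 (11.3%) in the other direction and 93.5% of the other sites. The authors' q-value in the lower library was above 0.05 at 406 (21.7%) and 284 (19.7%) of the members. The IDR score was at its ceiling of 1000 for 36.0% and 32.6% of them, and for 81.6% of the other sites. These 3 measures were made from the same 2 libraries as the ratio, so they describe the members and support nothing about them. The 2 replicate summits also lay farther apart at unequal sites, with a median distance of 22 bp and 21 bp against 10 bp elsewhere. Summit positions also entered the matching of peaks, and these distances were not compared among sites of like strength.

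For each member, the nearest other measured site was taken, to see how often neighbours shared a direction. Between 2 and 10 kb away, 3.14% of the neighbours of sites higher in replicate 1 were themselves higher in replicate 1, beside the background of 3.42%. For sites higher in replicate 2, 3.51% of the neighbours at that distance shared the direction, beside 2.63%. The shares among neighbours of the other measured sites at 2 to 10 kb were 3.21% and 2.26%. In the opposite direction were 2.99% of neighbours of sites higher in replicate 1 and 4.82% of neighbours of sites higher in replicate 2. Around the latter sites the opposite direction was thus more frequent than the shared one. Between 500 and 2000 bp the shares were higher. There, 26 of 427 neighbours (6.09%) shared the replicate 1 direction, and 13 of 297 (4.38%) the replicate 2 direction. Among neighbours of the other measured sites at that distance, 3.85% and 2.87% were members in these directions. There, 2.34% of neighbours of sites higher in replicate 1 and 3.37% of neighbours of sites higher in replicate 2 had the opposite direction. Where 2 members were each other's nearest neighbour, the pair was counted from both sides. Within 500 bp the numbers were small. Of 95 neighbours of sites higher in replicate 1, 2 were also higher in replicate 1 and 7 were higher in replicate 2. Of 70 neighbours of sites higher in replicate 2, 2 were also higher in replicate 2 and 6 were higher in replicate 1. Neighbours of the other sites within 500 bp were higher in replicate 1 in 7.83% and in replicate 2 in 5.64% of cases. These close pairs were few, and 7.20% and 7.15% of the members had another summit of the list within 500 bp, against 2.91% of the other sites. No peak of a replicate was assigned to more than 1 site.

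The CTCF core motif was less frequent at unequal sites than elsewhere in the list. The motif was counted where a stretch within 50 bp of the summit differed from the core at no more than 2 positions, on either strand. It was present at 46.3% (Wilson 95% interval 44.1 to 48.6) of sites higher in replicate 1 and at 48.8% (46.2 to 51.4) of sites higher in replicate 2. The other measured sites had it in 69.3%. Perfect core matches were found at 2.24% and 1.80% of the members and at 10.2% of the other sites. Where a match was present, the median distance from its centre to the summit was 10.5 bp in both directions and 6.5 bp at other sites, and 49.5%, 50.2% and 49.96% of the matches were on the plus strand.

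Much of this gap went with strength. In the weakest quartile of the list, 43.7% of the 1293 sites higher in replicate 1 and 47.6% of the 1050 higher in replicate 2 had the motif, beside 49.1% of the other sites. In the second quartile the values were 51.9%, 52.6% and 60.2%, and in the third they were 54.0% of 63 sites, 41.7% of 24 sites and 73.7%. Outside promoters, in the same order, the weakest quartile had 53.0%, 54.1% and 55.0%, and the second 66.6%, 59.7% and 67.1%. At promoters the weakest quartile had 15.8%, 23.2% and 19.6%, and the second 22.2%, 26.6% and 29.0%. Between the directions, the share of sites with the motif differed by -2.47 percentage points (replicate 1 minus replicate 2, Newcombe 95% interval -5.89 to 0.96), an interval that includes 0. The sign of this small difference turned under several other settings, and at a log2 threshold of 1.5 it was 2.84 points.

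Promoters were more frequent among unequal sites. A site was assigned to a promoter where its summit lay within 1 kb of the start of a protein-coding transcript. This held for 27.7% (25.7 to 29.8) of the sites higher in replicate 1, 21.2% (19.1 to 23.4) of those higher in replicate 2 and 15.1% of the other sites. Exons held 6.35%, 5.62% and 5.62%. Introns held 37.5%, 42.1% and 42.1%. Intergenic sites made up 28.4%, 31.2% and 37.2%. Among all 8571 measured promoter sites, 6.06% were higher in replicate 1 and 3.56% in replicate 2, beside 2.65% and 2.23% of intergenic sites. Over all strengths, members were 7.97% and 4.36% of the 5319 promoter sites without a core match. They were 2.92% and 2.24% of the 3252 promoter sites with a match. In the weakest quartile of the list by pooled signal value, the shares were 15.0% and 9.33% without a match. With a match they were 11.7% in both directions. In the second quartile they were 7.10% and 3.09% without a match, and 5.10% and 2.82% with one. The strongest quartile held no members, and there 1119 promoter sites had a match and 451 did not. Members near promoters touched 557 protein-coding genes in the direction of replicate 1 and 339 in the direction of replicate 2, with 7 genes in both. These gene numbers are not set against all genes with a measured promoter site. At shares of 6.06% and 3.56% of promoter sites, few genes would fall in both directions. The 7 shared genes therefore do not show that the directions hold separate genes.

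**Figure D4:**
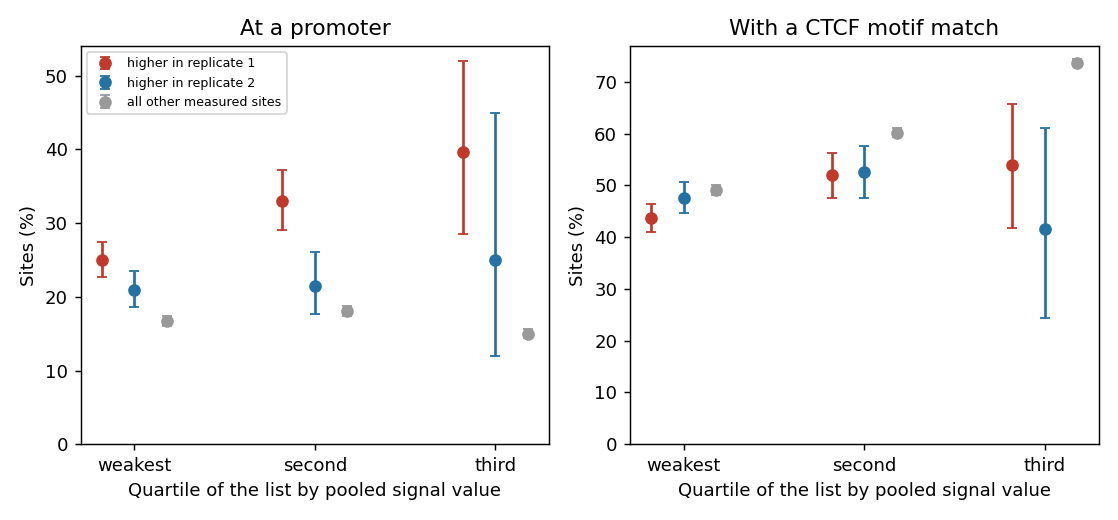
Share of sites (y axis, %) at a promoter (left) and with a CTCF motif match (right) in the 3 weaker quartiles of the list by pooled signal value (x axis), for sites higher in replicate 1 (red), higher in replicate 2 (blue) and all other measured sites (grey); bars are Wilson 95% intervals for counting error. The strongest quartile held no members, and in the second quartile 33.0% of the sites higher in replicate 1 were promoters against 21.5% in the other direction.

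The promoter share was 6.53 points higher toward replicate 1 than toward replicate 2 (Newcombe 95% interval 3.58 to 9.43). In the weakest quartile the difference was 4.03 points (0.59 to 7.41), with 24.98% and 20.95% beside 16.7% of the other sites. In the second quartile it was 11.5 points (5.53 to 17.2). At a log2 threshold of 1.5 the difference fell to 1.10 points, with an interval from -5.02 to 7.05. When each ratio was instead centred within its decile of GC content, the difference was 1.76 points, with an interval from -1.22 to 4.71.

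Base composition moved with the direction of the difference. The median GC content within 100 bp of the summit was 52.2% at sites higher in replicate 1, 48.8% at sites higher in replicate 2 and 49.3% at other sites. In the decile of the list with the lowest GC content, 1.85% (1.53 to 2.24) of the measured sites were higher in replicate 1 and 3.04% (2.62 to 3.52) in replicate 2. In the decile with the highest GC content the shares were 6.08% (5.46 to 6.77) and 3.32% (2.87 to 3.84). The share higher in replicate 1 thus grew more than 3-fold across the deciles, whereas the share higher in replicate 2 was lowest, 1.97%, in the eighth. Over all sites of a decile, members or not, the median centred log2 ratio went from -0.08 at the lowest GC content to 0.07 at the highest. Its part in the selection of members was not tested beyond the centring by GC content given above.

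**Figure D5:**
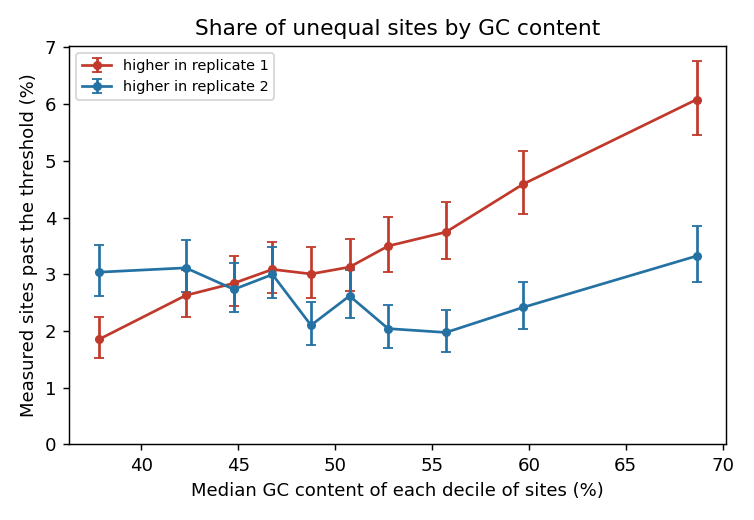
Share of measured sites past the 2-fold threshold (y axis, %) in each decile of the list by GC content, placed at the decile's median GC content (x axis, %); bars are Wilson 95% intervals for counting error. The share higher in replicate 1 goes from 1.85% to 6.08%, and the share higher in replicate 2 stays between 1.97% and 3.32%.

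CpG-rich windows and the GC box were more frequent toward replicate 1, and most of the 15 short motifs searched differed little between the directions. At least 8 CpG dinucleotides within 100 bp of the summit were present at 26.8% of sites higher in replicate 1, 20.7% of sites higher in replicate 2 and 17.0% of the other sites. The GC box GGGCGG, the recognition core of Sp and Klf factors, was searched on both strands within 50 bp of the summit. It was present at 9.66% (8.40 to 11.1) of sites higher in replicate 1 and 5.97% (4.86 to 7.31) of sites higher in replicate 2, beside 6.20% of all measured sites. At promoters alone the shares were 25.6%, 18.0% and 22.1%. The AP-2 motif GCCNNNGGC was found at 4.43% (3.59 to 5.46), 2.85% (2.10 to 3.84) and 3.56%, and the first 2 intervals overlap. The proneural E-box CAGCTG was found at 7.15%, 5.27% and 6.24%, but at promoters alone at 4.62%, 5.90% and 5.68%, and the other proneural E-box, CAGATG, at 12.7%, 11.9% and 11.9%. The homeodomain core TAATTA went the other way, at 17 of 1874 sites (0.91%, 0.57 to 1.45), 28 of 1441 (1.94%, 1.35 to 2.79) and 1.03%. The CCAAT box bound by NF-Y was found at 9.55%, 9.16% and 10.5%, the YY1 core AAGATGG at 2.19%, 2.15% and 2.91%, and the TATA element TATAAA at 2.51%, 2.50% and 2.85%. The GC box, the AP-2 motif and the GC content of a window share letters. TAATTA holds only A and T, the letters that GC content leaves out. These counts are therefore not separate observations. A match says only that the letters occur there.

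The summit lay in an annotated repeat (soft-masked sequence of the reference) at 22.0% of the sites higher in replicate 1, 25.6% of those higher in replicate 2 and 17.5% of the other sites. Among sites of like strength the members were at or below the other sites, except for sites higher in replicate 2 in the second quartile. In the weakest quartile the shares were 22.7%, 26.1% and 26.9%, in the second 21.8%, 25.1% and 24.0%, and in the third 7.94%, 12.5% and 16.3%.

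Gene lists for brain and other cell types, chromatin and several gene families held few unequal promoter sites. In 14 lists, 246 measured sites lay within 1 kb of a start of a listed gene. Of these, 10 (4.07%) were higher in replicate 1 and 2 (0.813%) in replicate 2. Among all measured sites the shares were 3.42% and 2.63%, and among all promoter sites 6.06% and 3.56%. The lists for synapse and activity genes (34 sites), replication-dependent histones (16), oligodendrocyte lineage (7), Hox genes (6), microglia (3) and erythroid cells (2) had none in either direction. Lists this small would hold few members at the share found over all measured sites.

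The clustered protocadherin genes encode the cell-surface proteins whose promoters CTCF helps to select. They had 41 measured promoter sites, of which 28 had a centred log2 ratio above 0 and 13 below. The median was 0.14, beside 0.06 over all 8571 measured promoter sites, which thus also leaned above 0. One member lay in each direction, within the same gene cluster. The site at Pcdhga5 (chr18:37694162-37694461) had 29.0 in replicate 1 and 10.3 in replicate 2, whereas the site at Pcdhga4 (chr18:37685024-37685323) had 11.1 and 22.4.

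Transcription factor genes of the forebrain had 2 members among 21 measured sites, both higher in replicate 1. The promoter site of Nr2f2, a nuclear receptor gene, had 20.2 and 5.54, and that of Pou3f2, a POU-domain factor of neural cells, had 33.8 and 14.5. Hes1, a transcriptional repressor downstream of Notch, was the single member among 6 sites of progenitor and astrocyte genes, with 17.2 and 4.40. Imprinted genes had 1 member in each direction among 28 sites. Airn, the lncRNA of the imprinted Igf2r region, had 18.96 and 4.54, and Inpp5f, a phosphoinositide phosphatase gene, had 6.67 and 12.98.

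Among 21 promoter sites of genes for CTCF, cohesin and loop factors, the member was Zfp143, a zinc-finger protein found at loop anchors, with 19.8 and 7.30. Cytosolic ribosomal protein genes had 1 member among 48 sites, Rpl29, with 29.0 and 8.06. Ocln, a tight-junction gene, was the member among 3 endothelial sites, with 13.5 and 5.52. Chemosensory receptor genes, most of them silent outside sensory neurons, had 2 members among 10 sites. These were Vmn1r27, with 14.9 and 5.50, and Olfr94, with 20.02 and 8.70.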

How the data were processed

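The deposited peak lists (mm10 coordinates) hold, per the labels and the authors' notes beside the files, peaks of each replicate, of the pooled replicates, and 2 IDR lists made from these. No aligner, peak caller or setting is given in the sources used here. The authors' signal value, an enrichment signal of unstated scale, gave the ratios. The deposited −log10 q-values and IDR scores were used only to describe sites. The lowest signal values listed were 3.20 and 2.81, so ratios at weak sites are bounded by what was listed.

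From these files, summits were matched within 100 bp, and log2 ratios were centred on their median. Annotation was the GENCODE basic set, and sequence was the RefSeq copy of the same mouse build, read with pysam 0.24.0. Shares were computed with pandas 2.3.3 and numpy 2.4.6 over sites on chromosomes 1 to 19, X and Y. The 8 sites of the list on other contigs held no member and entered only the counts. Intervals are Wilson's for a share and Newcombe's for a difference. Both cover counting error only. Matching, centring and motif search were tested on simulated peaks. The site selection, the gene lists, the motifs and the alternatives were chosen with earlier results of these data known.

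Named sites were, in each direction, the 8 with the largest ratio, the 5 with the highest pooled signal value, the 3 nearest the threshold on either side, and the promoter member with the largest ratio in each gene list. Of the sites nearest the threshold, a part is printed. Pou3f2 and Olfr94, second in their lists, were named after their values were seen. Sequences came from the first 2 groups, at most 6 in a direction. Alternatives were another threshold, summit reach, peak choice, centring, list, motif, promoter or GC definition.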

Additional observations from a re-analysis of the deposited data

How the results depend on the processing

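Numbers of sites are given for replicate 1, then replicate 2. At a log2 threshold of 1.5 there were 546 and 364, without centring 3007 and 846, in the conservative list 214 and 148, among the sites above the median pooled signal value 63 and 24, and with summits required within 20 bp, a setting chosen after seeing the data, 907 and 705. They stayed within 1.5 times of 1874 and 1441 with summits within 50 bp (1586 and 1249), with the strongest overlapping peak (1997 and 1522, of which 1781 and 1378 were among the original sites) and with q-values of 0.05 or less in both libraries (1468 and 1157). The motif difference of -2.47 points changed sign at a threshold of 1.5 (2.84), with centring by GC content (0.0887), in the conservative list (1.71), with at most 1 mismatch (0.703) and with summits within 20 bp (0.944). The promoter difference of 6.53 points was 1.10 at a threshold of 1.5, 1.76 with centring by GC content and 13.1 in the conservative list. The difference in median GC content, 3.48 points, was 1.99 at a threshold of 1.5, 5.72 in the conservative list and 2.59 over 250 bp on each side. The cause of these shifts was not tested. No paired analysis was possible because there is 1 group, and no replicate could be left out because a ratio needs both libraries. The unknown depth limits how far weak sites can be told apart.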

Other observations

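Members were spread over the genome. Of all measured sites, 3.42% were higher in replicate 1 and 2.63% in replicate 2. The share of measured sites higher in replicate 1 was highest on chromosome 18 (76 of 1655, 4.59%, Wilson 95% interval 3.68 to 5.71) and chromosome 4 (4.18%) and lowest on the X chromosome (30 of 1281, 2.34%, 1.65 to 3.32), leaving out the Y chromosome with 1 measured site. For sites higher in replicate 2 it was highest on chromosome 12 (3.12%) and lowest on the X chromosome (2.03%). By windows of 1 Mb, the most members higher in replicate 1 lay on chromosome 10 from 80000001 to 81000000, with 8 in that direction and 5 in the other among 98 measured sites. Another window, on chromosome 11 from 117000001 to 118000000, held 7 and 4 among 87. In addition, 2 windows that held 7 members higher in replicate 1 and none higher in replicate 2 lay on chromosome 4 from 46000001 to 47000000 (58 measured sites) and on chromosome 17 from 35000001 to 36000000 (86 sites). A window on chromosome 4 from 116000001 to 117000000 held 7 members higher in replicate 2 and 1 higher in replicate 1 among 47 sites. These windows, and the genes that follow, were picked for their counts.

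By gene body, the most members lay in Gm20388, a long gene model, with 9 higher in replicate 1 and 10 higher in replicate 2 among 279 measured sites, beside 3.42% and 2.63% of all measured sites. Camta1, a calmodulin-binding transcription activator gene, held 5 members among 51 measured sites, all higher in replicate 1. All 3 measured sites in Vars2, a mitochondrial valyl-tRNA synthetase gene that lies in the window on chromosome 17, were higher in replicate 1. Nedd4l, a ubiquitin ligase gene, held 3 members higher in replicate 1 among 12 sites. Ncam1, a neural cell adhesion molecule gene, held 3 higher in replicate 1 and 2 higher in replicate 2 among 12 sites. Galnt17, a glycosyltransferase gene, held 3 members in each direction among 20 sites.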
